A study of Rattus norvegicus with 8 samples.

Results

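Gfap and Vim encode the intermediate filament proteins of glia, and they are 2 of the 32883 genes in a count table of rat spinal cord. They were chosen by name, through their Ensembl identifiers ENSRNOG00000002919 (Gfap) and ENSRNOG00000018087 (Vim). The rule that names them uses no measured value, although it was written with earlier results of these data known. Both passed the filter on low counts that left 3016 genes for testing. The tissue was upper spinal cord of Sprague Dawley rats, described as intact, above a hemisection at T9. All 8 samples were taken 23 days after that injury, 4 from trained and 4 from untrained animals, so no uninjured tissue entered the comparison. The labels do not give the form of the training, the animals' age or sex, the segment dissected, or whether each sample came from its own animal. If they did not, the p-values describe only how these samples vary, which may be technical.

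GFAP is the intermediate filament protein of mature astrocytes, and its level is the usual measure of how reactive astrocytes are after injury. Vimentin is a relative from the same class of filament proteins. It is made by radial glia, immature and reactive astrocytes, the ependymal cells that line the central canal, blood vessel cells and fibroblasts. In reactive astrocytes both proteins assemble into the same filaments, and both transcripts are known to rise in the scar around a spinal lesion. In a bulk sample such as these, fewer cells of a type and less RNA per cell cannot be told apart.

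The promoter sequences of the 2 genes are shown because the 2 transcripts lay on the same side of the untrained level at every sample number, as given further on. Those directions share the library total, so they are no independent evidence that the transcripts move together. Shared regulation was not tested. Both symbols were found in the RefSeq promoter table, whose build is GRCr8 and not the Rnor_6.0 build of the counts. Each line below is the 250 bases before the annotated start, 5′ to 3′ on the strand of the gene. The window is chr10:88361662-88361911 on the minus strand for Gfap and chr17:81577011-81577260 on the plus strand for Vim. Capitals mark matches to the motifs named in the next paragraph.
Gfap: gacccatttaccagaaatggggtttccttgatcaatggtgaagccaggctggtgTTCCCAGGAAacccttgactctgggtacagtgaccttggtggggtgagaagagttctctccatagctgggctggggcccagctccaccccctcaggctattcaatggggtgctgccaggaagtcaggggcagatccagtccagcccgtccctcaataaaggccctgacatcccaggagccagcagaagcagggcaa
Vim: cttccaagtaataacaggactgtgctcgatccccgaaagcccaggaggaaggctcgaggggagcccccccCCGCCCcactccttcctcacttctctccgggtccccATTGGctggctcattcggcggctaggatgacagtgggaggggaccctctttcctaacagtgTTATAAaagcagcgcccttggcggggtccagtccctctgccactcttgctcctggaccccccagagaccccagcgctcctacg

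Motifs were searched on both strands, and the same window of 33469 promoters gave the background. The Gfap window held 1 match to TTCNNNNGAA, a STAT palindrome with a 4-base spacer, from 196 to 187 bases before the start. The same motif was in 6.25% of all promoters and had no match in the Vim window. The Vim window held a CCAAT box on the opposite strand (CCAAT, in 34.0% of promoters) and a GC box on the opposite strand (GGGCGG, in 30.5%). It also held a TATA box (TATAA, in 24.0%), which matched on both strands in overlapping positions. None of these 3 had a match in the Gfap window. The STAT palindrome with a 3-base spacer (TTCNNNGAA, in 7.67% of promoters) had no match in either window, and neither did the AP-1 element (TGANTCA, in 6.34%). CpG pairs numbered 1 in the Gfap window and 11 in the Vim window, against a median of 5 over all promoters. A match describes letters only, and nothing was measured here at either promoter.

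Each library was a CEL-Seq2 library, in which 1 tag from the 3′ end of a transcript is counted once by its unique molecular identifier (UMI). Levels are therefore given as CPM, the count per 1000000 counts of the column total, without division by transcript length. Column totals ran from 141737 to 298262, and trained libraries were on average shallower. The 10 most abundant genes took 9.79% of the counts in the deepest library, untrained 1, and 17.8% in the shallowest, trained 4. A level by column total depends on that share. Same-numbered libraries of both groups deviated alike, so the numbers 1 to 4 in their titles were used as pairs in some comparisons. No label says that they pair. The main edgeR fit of training and the exact permutation tests of group differences left the numbers out. Only the ratios within a number, the permutation of signs and the fits with a block used them as pairs.

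Gfap was among the abundant transcripts of the tissue. Its mean count of 553 ranked 35th of the 12545 genes with any count, and it made up 0.265% of all counts. In untrained samples 1 to 4 the Gfap level was 2716, 2136, 2542 and 2454 CPM. In trained samples 1 to 4 it was 3812, 2959, 2075 and 2533 CPM. The 2 highest libraries were trained 1 and trained 2 and the lowest was trained 3, so the trained values spanned the whole untrained range and the groups overlapped.

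The mean Gfap level was 2845 ± 739 CPM in trained and 2462 ± 243 CPM in untrained samples (each SD, n = 4). Counting error alone would give an SD of about 127 CPM in the trained and 103 CPM in the untrained libraries. The spread within each group was thus larger than counting alone would give, as separate samples usually show, and the difference in spread between the groups was not tested. Ordered by level, trained 1 stood apart from its nearest neighbour, trained 2, because their exact binomial 95% intervals (3541 to 4098 and 2735 to 3197 CPM) did not meet. Every other neighbouring pair in the Gfap order had overlapping intervals. These intervals cover counting error only.

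The difference in Gfap between trained and untrained samples was not called at an adjusted p under 0.05. In the edgeR quasi-likelihood fit over all genes the log2 fold change of Gfap was 0.27 with an SE of 0.22 (adjusted p = 0.999), and its 95% interval ran from -0.19 to 0.73. On the linear scale the interval runs from 0.874-fold to 1.66-fold, so an increase of about that upper size was not excluded. This fit left out the sample number. With the number as a block the interval ran from 0.962-fold to 1.48-fold (adjusted p = 0.914 by edgeR). The difference in mean log2 CPM by column total was 0.18 (p = 0.457 by an exact two-sided permutation test over 70 allocations, 0.800 after adjustment over the 3 comparisons of single values), where the smallest p the design allows is 0.0286. Without trained 1 this difference was 0.03, and the edgeR log2 fold change was 0.11. Without trained 3 they were 0.32 (p = 0.143 by the exact permutation test) and 0.37. Without untrained 2 they were 0.11 and 0.19. The same call held over all genes: edgeR called 0 of 3016 (0% of genes; 51, or 1.69%, at an unadjusted p under 0.05; 5.11% at that level with the sample number as a block), DESeq2 called 0 of 12539 (60 unadjusted) and limma voom 0 of 3016 (53 unadjusted).

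**Figure D1:**
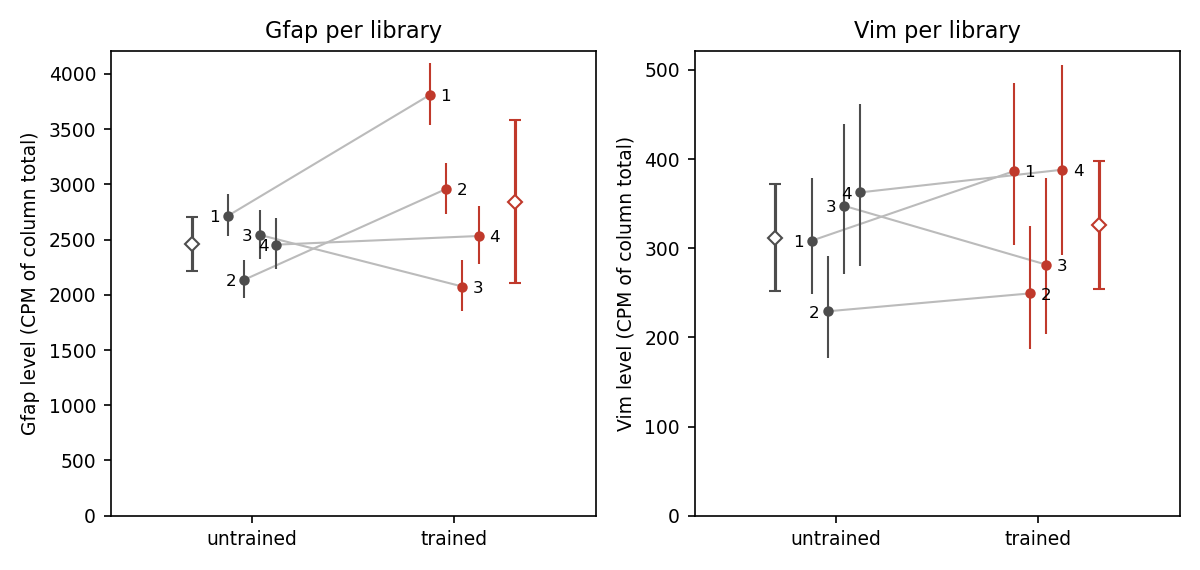
Levels of Gfap (left) and Vim (right) in CPM of the column total, from 0, by group; filled points are libraries with their sample number and exact binomial 95% interval, grey lines join samples of the same number, and open diamonds are the group mean ± SD (n = 4). Gfap in trained samples ran from 2075 to 3812 CPM around untrained values of 2136 to 2716 CPM, and the Vim groups overlapped over most of their range.

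Vim was measured at a lower level than Gfap in every library. Its mean count of 64.9 ranked 548th, and its counts ran from 43 to 92. In untrained samples 1 to 4 the Vim level was 308, 229, 347 and 363 CPM. In trained samples 1 to 4 it was 386, 249, 281 and 388 CPM. Sample 2 was the lowest library of each group, sample 4 the highest, and the groups overlapped over most of their range.

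The mean Vim level was 326 ± 71.6 CPM in trained and 312 ± 59.7 CPM in untrained samples (each SD, n = 4). Counting error would give SDs of about 44.0 and 37.3 CPM, so it could make up a large part of the spread seen. No neighbouring libraries in the Vim order had intervals that stood apart. The fitted log2 fold change of Vim in edgeR was 0.13 with an SE of 0.25 (adjusted p = 0.999), and its 95% interval ran from -0.40 to 0.66. In linear terms the interval runs from 0.758-fold to 1.58-fold, so a change within those bounds in either direction was not excluded at this depth. With the sample number as a block it ran from 0.870-fold to 1.40-fold (adjusted p = 0.935 by edgeR). By column totals the difference in mean log2 CPM was 0.06 (p = 0.800 by the same exact permutation test, also 0.800 after adjustment). The Vim difference changed sign when some single samples were left out. The edgeR value was -0.01 without untrained 2. By column totals the difference was -0.08 without untrained 2, -0.03 without trained 1 and -0.03 without trained 4. Leaving out 1 sample also unbalances the sample numbers. Blocked edgeR fits without both samples of a number were added after the data were examined. There the Vim value was 0.02, 0.15, 0.26 and 0.15 without numbers 1 to 4, and none passed the threshold.

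Among all genes tested, the fitted fold change of Gfap was above that of 86.1% and the fitted fold change of Vim above that of 71.3%. The median log2 fold change over the 3016 genes was -0.005. Genes of like abundance give a nearer reference. In the class of 64 genes with mean counts between 300 and 1000, 6 exceeded the fitted fold change of Gfap, and the median was 0.06. In the class of 893 genes with mean counts between 30 and 100, 218 exceeded that of Vim, and the median was -0.0025. These positions are descriptions and carry no test.

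**Figure D2:**
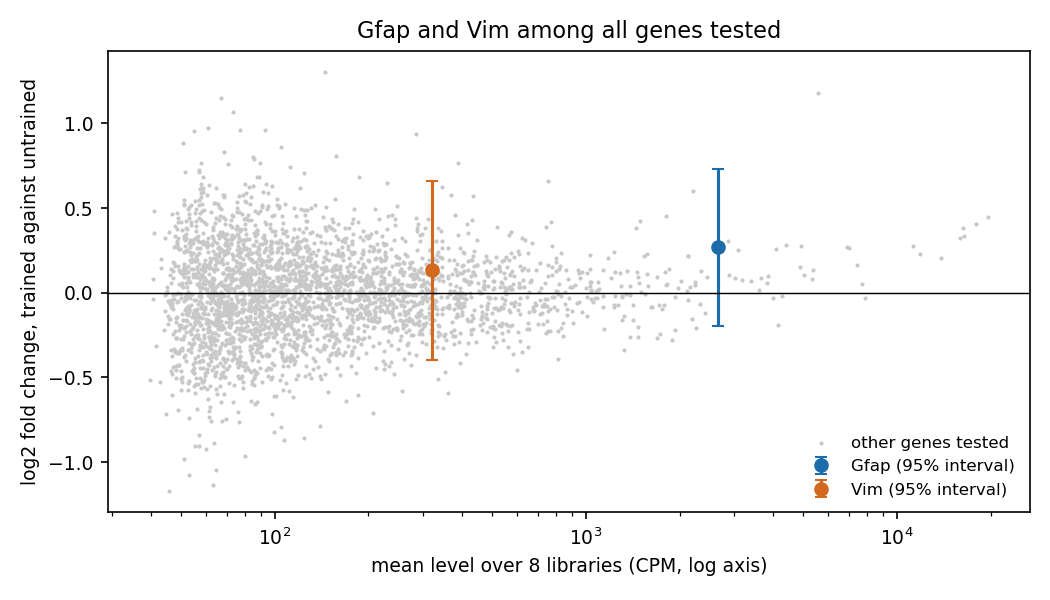
Log2 fold change of trained against untrained samples (edgeR) against the mean level over 8 libraries in CPM (log axis); grey points are the genes tested, and coloured points are Gfap and Vim with 95% intervals. The intervals of Gfap (-0.19 to 0.73) and Vim (-0.40 to 0.66) both cross 0.

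Set against the sample of the same number, the trained sample had the higher Gfap level at numbers 1, 2 and 4 and the lower at number 3. The Gfap ratios of trained to untrained level were 1.40, 1.39, 0.816 and 1.03 at numbers 1 to 4. The Vim ratios were 1.25, 1.09, 0.810 and 1.07, in the same direction as Gfap at each of the 4 numbers. Both genes share the library total in each ratio, so the 4 shared directions are no independent evidence that the transcripts move together. Exact permutation of the signs over the 4 pairs gave p = 0.375 for Gfap and p = 0.625 for Vim (two-sided), where the smallest possible value is 0.125.

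The balance of the 2 transcripts needs no scaling by library. There were 8.80, 9.32, 7.31 and 6.77 Gfap counts per Vim count in untrained samples 1 to 4. In trained samples 1 to 4 there were 9.86, 11.9, 7.37 and 6.53. Samples 1 and 2 of both groups had higher ratios than samples 3 and 4 of both groups, while the groups overlapped; the split by number was seen after the values were known and was not tested. Samples 1 and 2 also had the larger column totals within each group, and the part of depth in this was not tested.

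The mean ratio was 8.91 ± 2.43 (SD, n = 4) with training and 8.05 ± 1.21 (SD, n = 4) without. The difference in mean log2 ratio was 0.12 (p = 0.60 by an exact two-sided permutation test, 0.800 after adjustment), which is the test of whether Gfap and Vim differed in their change with training. Its direction turned without trained 2, the library with the highest ratio, where the difference was -0.03. Leaving out trained 2 alone also unbalances the sample numbers. Within numbers, the trained sample had the higher ratio in 3 of the 4 pairs. Exact permutation of the signs over the pairs gave p = 0.375 (two-sided), where the smallest possible value is 0.125. The exact binomial 95% interval of the ratio in trained 2, 8.98 to 16.0, overlapped those of trained 1 and trained 3 and lay just above that of trained 4, 4.90 to 8.84.

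**Figure D3:**
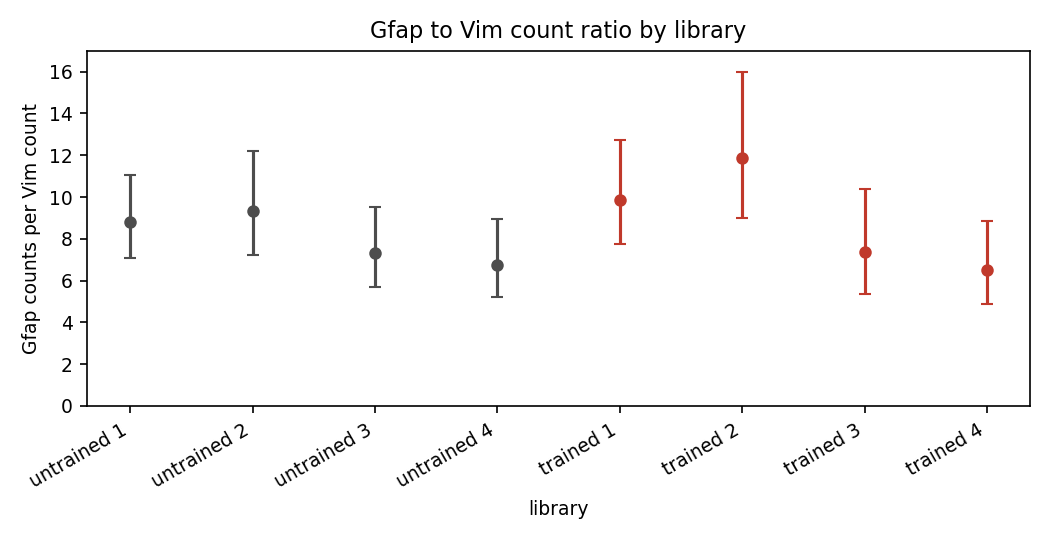
Gfap counts per Vim count in each library, from 0, with exact binomial 95% intervals; grey points are untrained and red points trained samples. The ratio ran from 6.77 to 9.32 in untrained and from 6.53 to 11.9 in trained samples.

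Differences among the sample numbers were tested with the training group kept in the model. Averaged over both groups, the Vim level was 347, 239, 314 and 375 CPM at numbers 1 to 4. The Gfap level was 3264, 2548, 2308 and 2494 CPM. Vim was lowest at number 2 and Gfap highest at number 1, so the order of the numbers was not the same for the 2 genes. Neither passed the threshold, with an adjusted p of 0.109 for Vim and 0.427 for Gfap by edgeR, while 12.6% of the genes tested did. Number went with depth, as samples 1 and 2 had the larger column totals in each group, and the part of depth was not tested. Without untrained 1, Vim passed at an adjusted p of 0.0459 by edgeR, and Gfap had an adjusted p of 0.0537. The 381 genes called among numbers fell to 123 without untrained 2, 321 without untrained 3 and 99 without untrained 4. They fell to 122 without trained 2, 253 without trained 3 and 65 without trained 4. The count rose to 529 without untrained 1 and to 543 without trained 1.

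The within-group SD of log2 CPM, pooled over both groups, was 0.28 for Gfap, and 28 of the 64 genes of like abundance had a smaller one. For Vim it was 0.31, with a smaller one in 276 of 893. The class medians were 0.30 and 0.37, so the pooled Gfap value lay only slightly below its median. Taken by group, the Gfap SD was 0.37 in trained and 0.15 in untrained samples, and the pooled value describes neither group. The Vim SD was 0.32 in trained and 0.30 in untrained samples. As column totals grew, the log2 count of Gfap rose with a slope of 1.03 on the log2 total, close to the class median of 1.13. The slope of Vim was 0.59 against a class median of 1.23 (quartiles 0.90 and 1.62), and 109 of the 893 genes had a smaller slope. A slope under 1 means that the Vim level tended to be higher in shallower libraries, and trained libraries were shallower on average; the part of depth in the Vim values was not tested.

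The genes most like each filament gene were ranked by Pearson's r of log2 CPM over the 8 libraries among 1225 other genes with a mean count of at least 30. For Gfap they were ENSRNOG00000010645 (r = 0.96) and ENSRNOG00000022619 (r = 0.92). For Vim they were ENSRNOG00000016516 (r = 0.92) and ENSRNOG00000033299 (r = 0.92). The level of the first, ENSRNOG00000010645, was 2044 ± 784 CPM in trained and 1560 ± 212 CPM in untrained samples (each SD, n = 4), with no call by edgeR (log2 fold change 0.45, SE 0.25, adjusted p = 0.999). The files do not pair these identifiers with symbols. Vim was not among the genes nearest to Gfap: it ranked 214th at r = 0.44, above 82.5% of the genes, whose median r was 0.015. In the Vim order Gfap ranked 177th, above 85.6%, and the median r was -0.23. Without the 2 libraries farthest from the median Gfap level, trained 1 and trained 3, r over the other 6 was 0.11. That step removes the highest and the lowest Gfap level, so the lower r is no evidence on how alike the 2 genes are. The r values of the genes nearest to Gfap are the highest of 1225 and were not recomputed without trained 1 and trained 3. All of these r values share library totals and sample numbers across genes, and they carry no p.

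**Figure D4:**
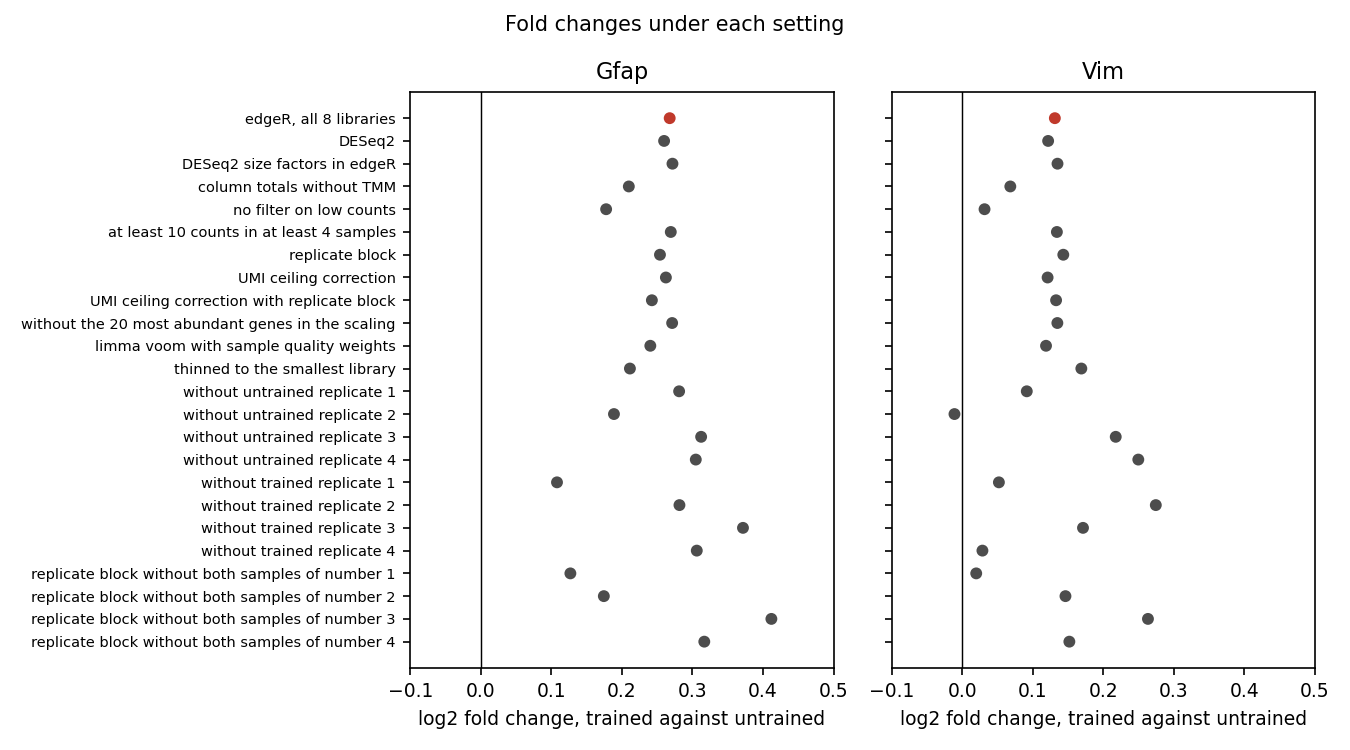
Fitted log2 fold change of trained against untrained samples for Gfap (left) and Vim (right) under each setting, with the fit to all 8 libraries in red and 0 marked by a line; no intervals are drawn. Gfap ran from 0.11 to 0.41 and Vim from -0.01 to 0.27, and neither passed the threshold in any of these settings.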

How the data were processed

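The deposited data are 1 table of whole-number UMI counts, as its name says, for 32883 Ensembl rat gene identifiers in 8 samples. HISAT2 2.0.4, HTSeq 0.6.0 and the build Rnor_6.0 are named in the submitters' processing notes. What UMI length, strand setting and annotation release were used is not given in the sources. Groups follow the labels, and each column name holds the same parts as 1 sample title. The table gives no symbols and 0 of its identifiers matched the RefSeq gene table used here, so Gfap and Vim are named by the identifiers with which they were chosen, and the planned lists of astrocyte, filament and other cell type genes were not used. The members, lists and tests were chosen with earlier results of these data known.

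The training contrast was fitted in edgeR 4.0.16 (R 4.3.3) with its expression filter (minimum count 10, minimum total 15), TMM scaling, quasi-likelihood F test, Benjamini-Hochberg adjustment over all genes tested, threshold 0.05. Fold change intervals come from the quasi-likelihood standard error. The sample numbers were tested in a model with group. Single values were compared by exact permutation tests (Python 3.11.15, SciPy 1.17.1). DESeq2 1.42.0, limma 3.58.1, other scalings and filters, thinned counts, the replicate block and leaving out each sample were alternatives. So was a correction for a ceiling of 4096 UMIs, which was inferred from the highest counts. The edgeR script was tested on simulated data. The simulated training effects were larger than those fitted for Gfap and Vim, and no sample number effect was set beside them. That test does not show what size of change these data could detect.

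Samples of the same number deviated together from their group means across genes, with correlations of 0.27 to 0.51. All were over the limit of 0.1, but some pairs of unlike number passed it too. These were trained 2 with untrained 1 (0.26, the highest other value), trained 1 with untrained 2 (0.18) and trained 4 with untrained 3 (0.11). Samples 1 and 2 had the larger column totals in each group, and the part of depth in these correlations was not tested. No columns were identical. The named genes were Gfap, Vim and, for each, the 2 genes with the highest r.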

Additional observations from a re-analysis of the deposited data

How the results depend on the processing

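Neither Gfap nor Vim passed the threshold for training in any of the 23 alternatives of the edgeR fold change. Gfap stayed positive in all 23, from 0.11 to 0.41 on the log2 scale, and Vim in 22 of 23, the exception being -0.011 without untrained 2. With each sample left out in turn, the fold change of Gfap ran from 0.11 to 0.37 and that of Vim from -0.011 to 0.27. The column-total difference ran from 0.03 to 0.32 for Gfap and from -0.081 to 0.18 for Vim, where it turned without untrained 2 (-0.081), trained 1 (-0.030) and trained 4 (-0.032). With the 20 most abundant genes left out of the totals, the difference was 0.24 for Gfap and 0.12 for Vim, against 0.18 and 0.06 with them. Neither passed the threshold (p = 0.314 and 0.629 by the exact permutation test). The log2 Gfap to Vim ratio ran from -0.033 to 0.25 and turned without trained 2 (-0.033). With the replicate block the fold change was 0.25 for Gfap (SE 0.14, adjusted p = 0.914 by edgeR) and 0.14 for Vim (SE 0.16, adjusted p = 0.935), with intervals of 0.962-fold to 1.48-fold and 0.870-fold to 1.40-fold. The block changed neither gene's call, and 0 genes were called with it. Genes at an unadjusted p under 0.05 by edgeR numbered 51 (1.69%) without the block and 154 (5.11%) with it. The share with the block is about what that threshold gives when no gene differs, so it is no sign of a training difference. Blocked fits without both samples of a number, added after the data were examined, called 4, 1, 0 and 2 genes without numbers 1 to 4. Without the filter on low counts edgeR called 6 genes, and neither Gfap nor Vim was among them. For the sample numbers, the adjusted p of Vim ran from 0.0459 (without untrained 1) to 0.386 and that of Gfap from 0.0537 to 0.877 with samples left out, and the count of genes called from 65 to 543; it was 381 with all samples. The cause of these changes was not tested. With a correction for a UMI ceiling the fold changes were 0.26 for Gfap and 0.12 for Vim. Gfap counts reached at most 19.8% of that ceiling. Depth limits Vim more than Gfap: counting error in a library was about 12.8% of the Vim level and 4.38% of the Gfap level.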

Other observations

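None of the 6 sets of 4 values examined (Gfap, Vim and their ratio in each group) had a lone sample whose gap to the next passed the limit for outliers. The trained group had the wider spread of the Gfap level, with a coefficient of variation of 26.0% against 9.87% in the untrained group; the difference in spread was not tested.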
